A study of Caenorhabditis elegans with 2 samples.

Results

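The genes of the TGF-beta branch of dauer signalling were examined for regions in deposited ChIP lists of DAF-12, a nuclear receptor of C. elegans for steroid hormones. They are the 7 genes daf-7, daf-1, daf-4, daf-8, daf-14, daf-3 and daf-5, out of 19973 nuclear protein-coding genes. They were listed by name with earlier results of these data known, and no measured value of these data entered the rule. A region was given to a gene when its summit lay in the gene or within 3000 bp of it, a window that totalled 91.74 kb over the 7 genes. The chromatin came from whole larvae at the fourth larval stage (L4) of strain OP222, which carries the unc-119(ed3) allele on chromosome III and the transgene insertion wgIs222 with eGFP-tagged daf-12. Sexes were pooled, ages are unknown, and there were 2 biological replicates in 1 group, so the lists hold no contrast with another stage, strain or treatment. All tissues of the larva were mixed, and binding in a few cells cannot be told apart from weak binding in many.

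In this pathway the secreted ligand DAF-7 binds a receptor made of DAF-1 and DAF-4, and the receptor acts on the Smad proteins DAF-8 and DAF-14. Together these oppose the Smad protein DAF-3 and its partner DAF-5, which otherwise promote entry into dauer, the long-lived larval form taken under crowding, heat or hunger. DAF-12 is known to act downstream of this pathway, through the steroid hormones whose synthesis the pathway favours. The question asked of the data was whether regions of DAF-12 ChIP lay at the pathway's own genes, and which.

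The deposited signal of a region has no stated scale and was used only to rank regions within 1 list, where rank 1 is the largest signal. Regions numbered 30000 in the pooled list, which was called on both replicates together. By its deposited name it holds peaks and background, as input to the thresholding for reproducibility. A region in it is therefore not by itself a peak. Replicate 1 also had 30000 regions and replicate 2 had 23934. A deposited q-value below 0.05 was reached by 1709 pooled regions, by 5020 in replicate 1 and by 14271 in replicate 2, and q-values were not compared between lists. Read depth is unknown.

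All 7 genes had at least 1 pooled region, as did 90.9% of nuclear protein-coding genes. Within 1000 or 2000 bp it was 5 of the 7, without daf-7 and daf-1. They held 33 pooled regions, with 32 in replicate 1 and 24 in replicate 2. Per kb searched this was 0.360 pooled regions, against 0.299 over the nuclear genome. The replicate 1 list had 0.349 per kb at these genes against 0.299 over the nuclear genome, and the replicate 2 list 0.262 against 0.238. Signals of the 33 regions lay between 4.16 and 12.82. Their median was 5.62, and that of all nuclear pooled regions was 5.74. By number of regions, the median gene of the 7 had 0.303 pooled regions per kb, against 0.283 over nuclear protein-coding genes.

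The strong end of the pathway was daf-5 and daf-14. These were the 2 genes of 7 with a pooled region at a q-value below 0.05, against 13.7% of nuclear protein-coding genes. In regions, 2 of 33 (6.06%) passed that value, against 5.61% of nuclear pooled regions. Those q-values are of the pooled list alone. In the replicate 1 list daf-14, daf-3 and daf-5 had a region below 0.05, as had 5020 of its 30000 regions. In the replicate 2 list it was every gene except daf-4, and 14271 of its 23934 regions. No gene of the 7 had a peak in the list thresholded for reproducibility, which 0.175% of nuclear protein-coding genes had. By best pooled rank the order was daf-5 (358), daf-14 (1426), daf-3 (2229), daf-8 (6283), daf-7 (12743), daf-4 (14675) and daf-1 (23012). This order held for the 3000 bp window: within 1000 bp the best rank was 9103 for daf-3 and 23314 for daf-8, and within 5000 bp it was 4058 for daf-8, 7185 for daf-7 and 9925 for daf-1. The median of these best ranks was 6283, against 7115 over nuclear protein-coding genes with a region.

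The sequences around 5 summits are shown because they carry the statements on these genes: the strongest pooled regions of daf-5, daf-14, daf-3 and daf-7, and the region of daf-5 that met regions of both replicates and held a match to a half-site hexamer. Each is 201 bases long on the plus strand of ce11 (WBcel235), from the RefSeq assembly, with the summit in the middle, and capitals mark a match to a hexamer (AGTGCA or AGGACA, on either strand).
daf-5, pooled rank 358, chrII:14044861-14045061: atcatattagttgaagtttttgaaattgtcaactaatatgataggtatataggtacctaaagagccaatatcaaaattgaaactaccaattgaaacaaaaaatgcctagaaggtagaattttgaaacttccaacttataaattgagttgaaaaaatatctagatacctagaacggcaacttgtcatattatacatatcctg
daf-14, pooled rank 1426, chrIV:10249948-10250148: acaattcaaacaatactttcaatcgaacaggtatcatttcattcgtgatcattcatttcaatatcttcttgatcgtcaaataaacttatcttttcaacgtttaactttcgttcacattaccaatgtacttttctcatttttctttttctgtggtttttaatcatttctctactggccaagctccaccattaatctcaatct
daf-3, pooled rank 2229, chrX:827217-827417: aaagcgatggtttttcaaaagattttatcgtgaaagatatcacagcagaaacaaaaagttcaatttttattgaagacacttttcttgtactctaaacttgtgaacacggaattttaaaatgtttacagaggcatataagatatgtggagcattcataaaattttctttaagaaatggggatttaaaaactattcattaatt
daf-7, pooled rank 12743, chrIII:809723-809923: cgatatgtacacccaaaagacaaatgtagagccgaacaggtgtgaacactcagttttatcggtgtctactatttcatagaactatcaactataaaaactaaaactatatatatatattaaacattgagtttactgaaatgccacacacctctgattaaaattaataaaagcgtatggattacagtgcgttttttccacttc
daf-5, pooled rank 21035, chrII:14040533-14040733: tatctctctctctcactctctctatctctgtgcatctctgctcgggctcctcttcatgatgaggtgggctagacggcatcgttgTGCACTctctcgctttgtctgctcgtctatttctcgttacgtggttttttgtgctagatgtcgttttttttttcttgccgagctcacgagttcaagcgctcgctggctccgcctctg

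None of the 4 strongest regions printed had either hexamer in its window. The daf-5 region of rank 21035 had AGTGCA on the minus strand at positions 14040617 to 14040622, and its GC content was 50.7%. The other windows were poorer in GC, at 28.4% for daf-5 rank 358, 30.8% for daf-14, 27.4% for daf-3 and 32.3% for daf-7.

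**Figure D1:**
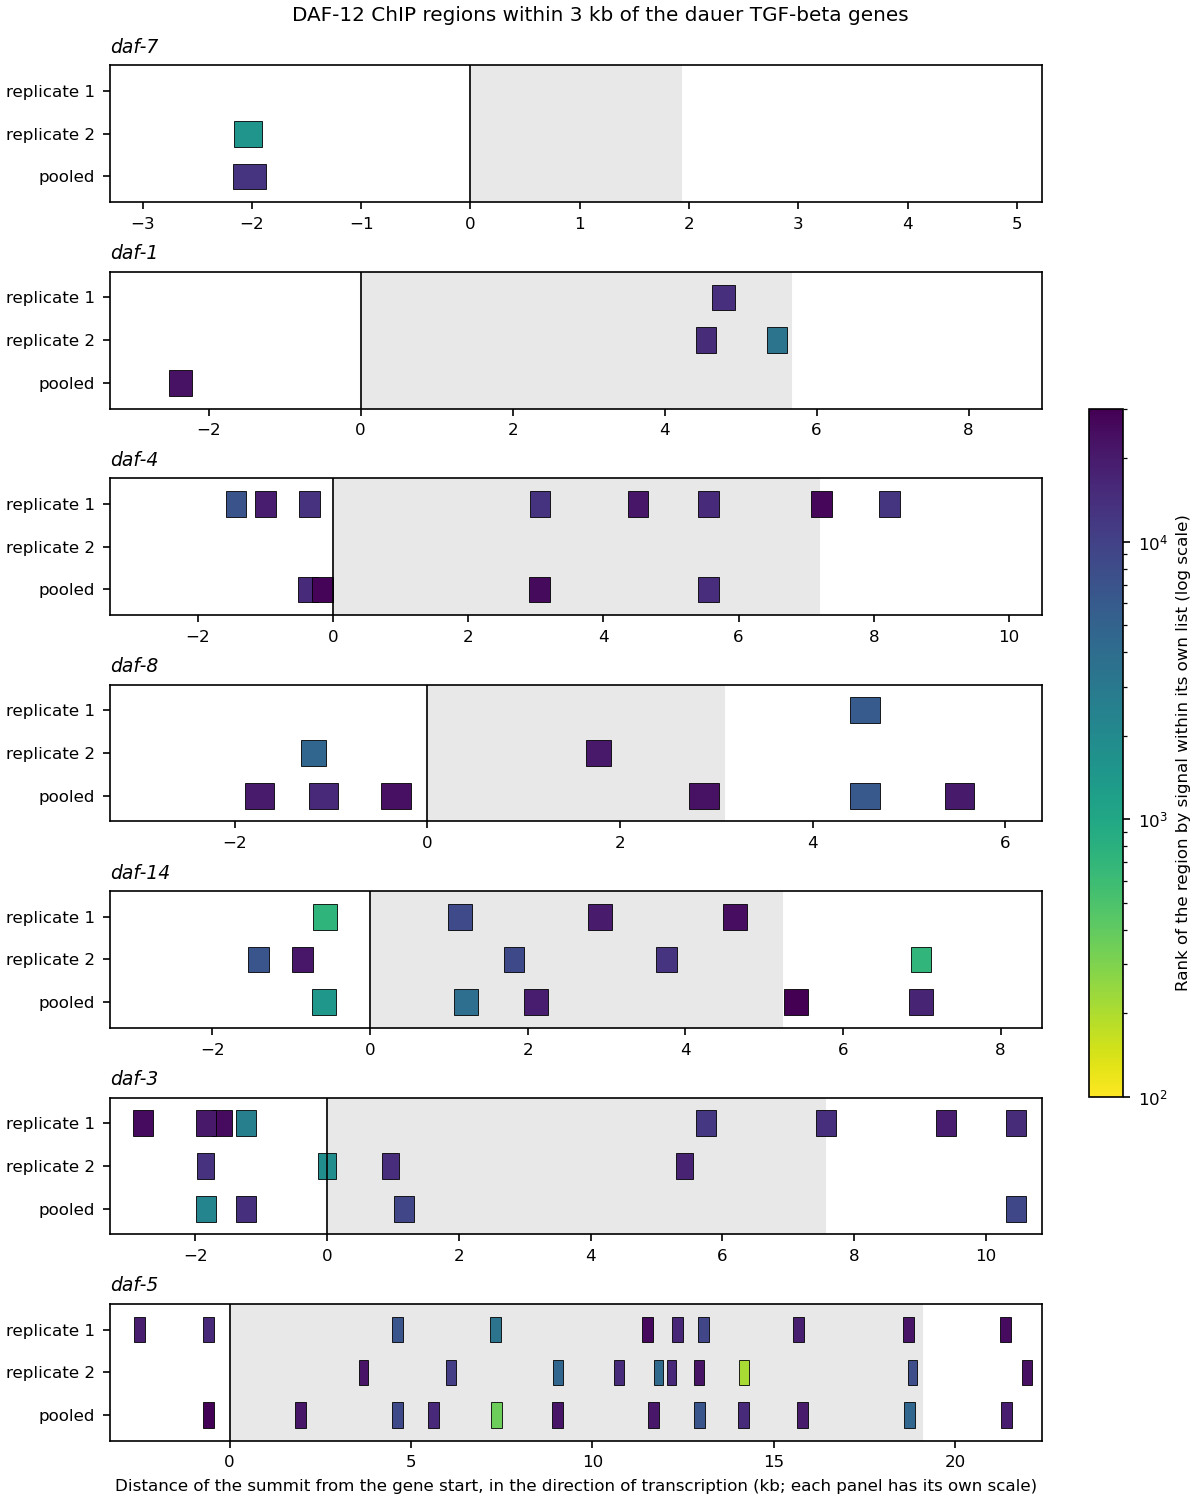
Regions within 3 kb of each gene in the replicate 1, replicate 2 and pooled lists, drawn at their length around the summit, by distance in kb from the gene start in the direction of transcription. Grey marks the gene, the vertical line its start, and colour the rank within the list on a log scale. The brightest bars are the pooled region of daf-5 at rank 358 and the replicate 2 region of daf-5 at rank 213, which lie at different places in the gene.

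The ligand gene daf-7 had 1 pooled region. daf-7 encodes the TGF-beta ligand, made in the ASI pair of chemosensory neurons under good conditions. The gene lies on chromosome III at 811844 to 813773, on the plus strand. Its region (809671 to 809974) was intergenic, with a pooled signal of 6.08 at a q-value of 0.467. The summit lay 2021 bp upstream of daf-7, and the nearest coding start was that of trpp-11, 1913 bp away. In replicate 2 the overlapping region ranked 1546 with a signal of 5.36. Its q-value there was 0.00357, the smallest of that list, which 2945 regions had. In replicate 1 the whole window of 7.93 kb held no region. The presence of a region at daf-7 thus rested on replicate 2.

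The receptor genes daf-1 and daf-4 were the weakest of the pathway in the pooled list. daf-1 encodes the type I receptor (chromosome IV, 132416 to 138081, plus strand). Its 1 pooled region (129889 to 130192) was intergenic, 2375 bp upstream of the start, with a signal of 4.77 at rank 23012. That pooled region overlapped no region of either replicate. The replicates instead had regions inside the gene. Replicate 1 had 1, at 137041 to 137344 in a coding exon, which ranked 13856 there with a signal of 4.34. It overlapped a replicate 2 region at 136827 to 137086, with its summit in an intron, at rank 14835 and a signal of 2.68. A further replicate 2 region (137767 to 138026, rank 3382, signal 4.49) had its summit in the 3' UTR. None of these 3 had a pooled counterpart, so at daf-1 the pooled list and the replicate lists described different places.

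daf-4 encodes the type II receptor, which is also used by the body size pathway of the ligand DBL-1. The gene lies on chromosome III at 5625135 to 5632323, on the plus strand. All 4 of its pooled regions overlapped a region of replicate 1, and none overlapped one of replicate 2. Replicate 1 had 8 regions in the window of 13.19 kb and replicate 2 had none. The strongest pooled region (5630537 to 5630840, signal 5.78) lay in a coding exon and ranked 14675, with rank 15338 in replicate 1. A pair of overlapping regions lay just upstream of the gene, with summits 366 and 155 bp before the start at pooled ranks 15302 and 28545. Both regions of this pair overlapped the same replicate 1 region, of rank 13317. The fourth, at rank 26071, lay in a daf-4 intron, in an exon of the noncoding gene C05D2.11 and 348 bp upstream of an internal daf-4 start. The strongest replicate 1 region (5623552 to 5623855, rank 6996, signal 5.49) lay 1431 bp upstream and had no pooled counterpart.

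Of the Smad genes that transmit the signal, daf-14 ranked higher than daf-8 in all 3 lists. daf-14 encodes a receptor-regulated Smad (chromosome IV, 10250627 to 10255852, plus strand) and had 5 pooled regions. The strongest (10249896 to 10250199) lay 579 bp upstream of the start, in intergenic sequence, with a signal of 10.3 at rank 1426 and a q-value of 0.0445. In replicate 1 the same place ranked 735 with a signal of 8.97. Replicate 2 touched it by 3 bp only, through a region of rank 21277 that did not overlap the replicate 1 region. Within the gene, an intronic pooled region 1220 bp after the start (10251695 to 10251998, signal 8.43) ranked 3922, with rank 8286 in replicate 1 and no overlap in replicate 2. The strongest replicate 2 region of daf-14 lay at the other end, 1765 bp past the gene (10257487 to 10257746, rank 724, signal 6.15). It fell in a coding exon of the neighbouring gene F01G10.9, and its pooled counterpart ranked 16856. Each replicate thus had a region within its first 1000 ranks in the daf-14 window, and their summits were 7563 bp apart.

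daf-8 encodes the other receptor-regulated Smad (chromosome I, 8584424 to 8587507, minus strand). It had 6 pooled regions in 9.08 kb, where nuclear protein-coding genes with windows of 8 to 10 kb had a median of 3 and a 90th percentile of 5. The strongest (8582811 to 8583114, signal 7.54, rank 6283) was intergenic, 1461 bp past the 3' end of the gene, and ranked 5958 in replicate 1 with no overlap in replicate 2. Upstream, pooled summits lay 327, 1079 and 1748 bp before the start, at ranks 23611, 15610 and 19743. The region at 1079 bp overlapped a replicate 2 region of rank 4625, and those at 327 and 1748 bp overlapped no replicate region. Of the 6 pooled regions, 4 overlapped no region of either replicate, so the high count at daf-8 was not seen in the replicate lists, which held 1 region and 2 regions.

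The opposing arm, daf-3 and daf-5, held 5 of the 6 replicate 1 regions that a replicate 2 region overlapped, and also most of the 32 replicate 1 regions. The overlapped ones were 2 of 8 at daf-3 and 3 of 10 at daf-5, against 18.2% of nuclear replicate 1 regions. Both at daf-3, of ranks 25367 and 20839, overlapped the same replicate 2 region of rank 13449. daf-3 encodes the Smad that is active when signalling is low (X chromosome, 817922 to 825475, minus strand). Its strongest pooled region (827165 to 827468, signal 9.44, rank 2229, q-value 0.077) was intergenic, 1842 bp upstream of daf-3. The nearest coding start was that of wdr-54, 1586 bp away. This place had regions in both replicates with 260 bp in common, at rank 20839 in replicate 1 and rank 13449 in replicate 2. The signals of these 2 replicate regions were 3.58 and 2.81, below the nuclear medians of their lists, 4.19 and 2.96. In the pooled list the signal of 9.44 was above the nuclear median of 5.74. The strongest daf-3 regions of the single replicates lay elsewhere. In replicate 1 it was 1234 bp upstream (826557 to 826860, rank 2614, signal 7.03), and its pooled counterpart ranked 13531. In replicate 2 the summit lay 3 bp upstream of the annotated start (825348 to 825607, rank 1818, signal 5.17), with no pooled counterpart. An intronic region of pooled rank 9103 (signal 6.80) overlapped replicate 2 alone, and a region of rank 8813 (signal 6.86) near the far end of the window lay in an intron of ifd-2.

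daf-5 encodes a Sno/Ski-type protein, the partner of DAF-3 (chromosome II, 14033216 to 14052304, minus strand). It is the longest gene of the 7 and had 12 pooled regions in 25.09 kb. Genes with windows of 24 to 26 kb had a median of 8 and a 90th percentile of 12.6. The pooled region of rank 358 (14044809 to 14045112, signal 12.82, q-value 0.0154) lay in an intron, 7343 bp after the gene start. It overlapped a replicate 1 region of rank 3451 (signal 6.61) and no replicate 2 region. The strongest replicate 2 region (14037994 to 14038253, rank 213, signal 7.42) also lay in an intron, 403 bp upstream of an internal daf-5 start. Replicate 1 had no region there, and the pooled counterpart ranked 15248. The summits of these strongest replicate regions were 6842 bp apart.

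A best rank of 358 or better was reached by few genes, since 2.84% of nuclear protein-coding genes had a better one than daf-5, and 11.6% had a better one than daf-14. Longer windows held better ranks over the genome. Among genes with windows of 24 to 26 kb, 38.5% had a pooled region at a q-value below 0.05, and their median best rank was 2598. Among genes with windows of 10 to 12 kb, the class of daf-14, the share was 16.2% and the median best rank 6126. The genes next to daf-5 in best pooled rank, a likeness in rank alone over 1 group, were F10D7.11, mfsd-10 and npr-36, which share the region of rank 357. Those next below were C14F11.7, T13C5.6, bca-1, lrch-1 and mtp-18, at rank 359. Next to daf-1 were cec-6 at rank 22992 and F26D2.14 with F26D2.15 at rank 23014.

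**Figure D2:**
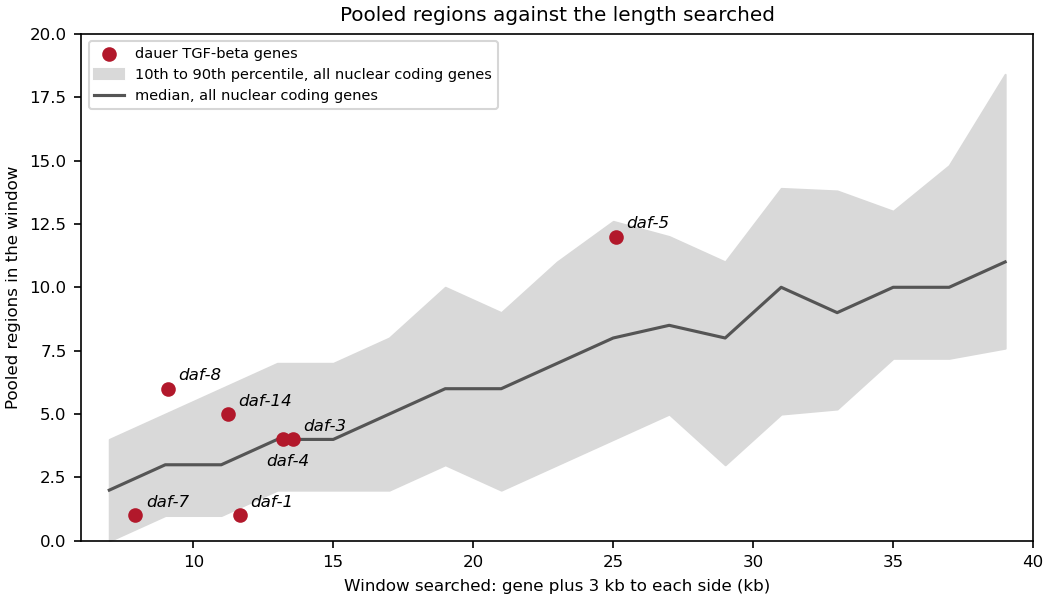
Number of pooled regions against the window searched (gene plus 3 kb to each side, in kb), for the 7 genes in red and for all nuclear protein-coding genes as a median line with a band from the 10th to the 90th percentile, in bins of 2 kb. daf-5 lies inside the band at 12 regions and daf-8 above it at 6. daf-1 at 1 lies just below the band as drawn between bin centres, and equals the 10th percentile of its own bin.

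Replicate agreement at the 7 genes was near that of the genome. Of the 32 replicate 1 regions, 6 overlapped a replicate 2 region (18.8%), against 18.2% of nuclear replicate 1 regions. In the other direction 5 of 24 replicate 2 regions overlapped one of replicate 1 (20.8%), against 22.3%. These overlaps lay at 3 genes, daf-1, daf-3 and daf-5, and 36.7% of nuclear protein-coding genes had at least 1. The best-ranked pair member in replicate 1 was at rank 9067 (daf-5, signal 5.07, where the nuclear median of that list was 4.19). In replicate 2 it was at rank 7796 (daf-5, signal 3.50, where the nuclear median was 2.96). With at least 50% of both regions in common, 3 of the 6 were left, and with summits within 100 bp only 1.

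Of the 33 pooled regions, 5 overlapped regions of both replicates (15.2%), against 17.7% of nuclear pooled regions. They were the upstream regions of daf-14 and daf-3 described above and 3 regions of daf-5. The first of these (14033417 to 14033720, signal 8.15, pooled rank 4569) lay in the 3' UTR of daf-5, at rank 22199 in replicate 1 and rank 7796 in replicate 2. The next (14039192 to 14039495, signal 7.37, pooled rank 6818) was intronic, at ranks 9067 and 22587. The last (14040481 to 14040784, signal 4.99, pooled rank 21035), also intronic, met a region of rank 26301 in replicate 1 and one of rank 4366 in replicate 2, which did not overlap each other.

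Regions were present in both replicate lists for 5 of the 7 genes, against 80.6% of nuclear protein-coding genes. For none of these 5 did the strongest replicate 1 region overlap the strongest replicate 2 region. Among nuclear protein-coding genes with regions in both lists, 9.18% had such an overlap. The summits of the strongest regions were 704 bp apart at daf-1, 1231 bp at daf-3, 5725 bp at daf-8, 6842 bp at daf-5 and 7563 bp at daf-14. Their median was 5725 bp, and over the 16105 nuclear protein-coding genes with regions in both lists it was 2372 bp. A longer window allows larger distances. The median window was 11.67 kb for the 7 genes and 8.03 kb over nuclear protein-coding genes, and the part of window length was not tested. The order of the genes also changed with the list. In replicate 1 it began with daf-14 (735), daf-3 (2614) and daf-5 (3451), and in replicate 2 with daf-5 (213), daf-14 (724) and daf-7 (1546). Ranks carry no error of their own, so neighbours in these orders were not separated.

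**Figure D3:**
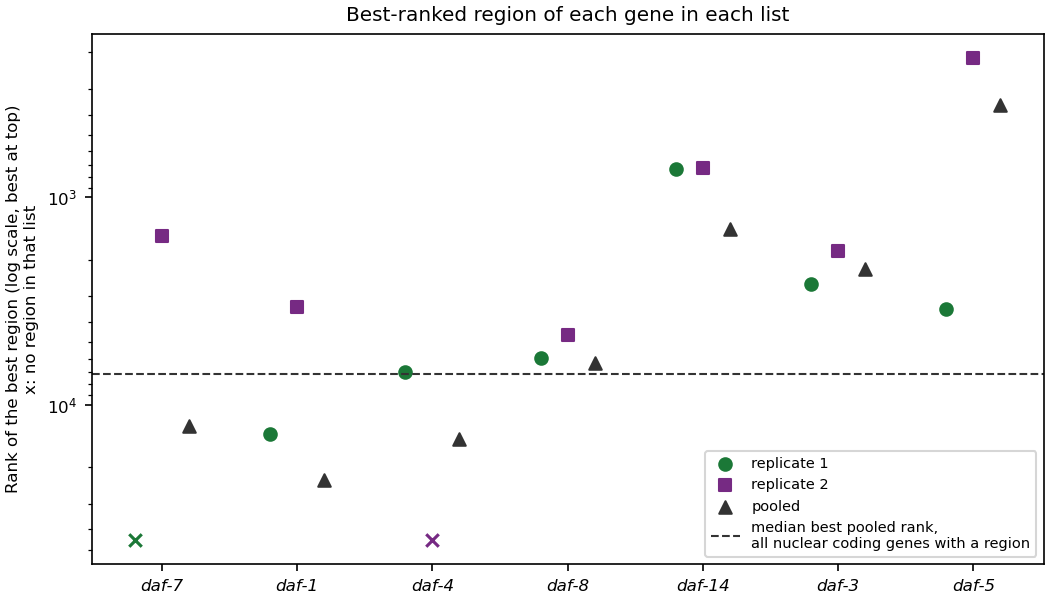
Rank of the best region of each gene on a log axis with the best at the top, in replicate 1 (circles), replicate 2 (squares) and the pooled list (triangles), with a cross where a list held no region. The dashed line at 7115 is the median best pooled rank over nuclear protein-coding genes with a region. The line applies to the triangles alone: those of daf-5, daf-14, daf-3 and daf-8 lie above it, and daf-7 and daf-4 each lack a region in 1 replicate.

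By position, 11 of the 33 pooled summits lay upstream of the gene, 16 inside it and 6 past its end. In all, 14 were intergenic (42.4%), against 38.1% of nuclear pooled regions, and 13 intronic (39.4%), against 34.5%. Coding exons held 3 (9.09%), against 17.8%, 3' UTRs 2 and a noncoding exon 1, and no summit lay in a 5' UTR. For 6 regions the nearest coding start belonged to another gene: trpp-11 beside daf-7, rskn-1 for 2 regions past daf-8, F01G10.9 beside daf-14, and wdr-54 and ifd-2 beside daf-3. Those regions cannot be told apart from regions of the neighbouring genes.

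DAF-12 is known to bind hexamers such as AGTGCA and AGGACA. These were present within 100 bp of the summit, on either strand, at 3 of the 33 pooled regions (9.09%, 95% exact Clopper-Pearson interval 1.92% to 24.3%, which covers counting error only). Over nuclear pooled regions the share was 11.1%. In the list of replicate 1 alone, without replicate 2, the share at the 7 genes was 3.12%, against 11.2% of nuclear regions. In the list of replicate 2 alone it was 8.33%, against 11.6%. The 3 were the daf-5 region of rank 21035, a daf-5 intronic region of rank 19700 with AGTGCA at 14036618 to 14036623, and a region of rank 20355 past the end of daf-8. All 3 ranked below the median nuclear pooled region, at 15014.5. A match describes the sequence and is not a site, and its lack says only that these letters are not in the window.

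Repeat content was measured beside the ranks. In the daf-5 region of rank 358, 58.2% of the bases within 100 bp of the summit were soft-masked in the RefSeq assembly, against 14.4% at the daf-14 region of rank 1426 and 49.8% at the daf-3 region of rank 2229. The median was 34.8% over the 33 regions and 34.8% over nuclear pooled regions. More than 50% was masked in 7 of the 33 regions (21.2%), against 28.4% of nuclear pooled regions. The upstream regions of daf-4 were masked over 92.5% and 91.0%. The part of masking in these ranks was not tested.

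Other genes of TGF-beta signalling, genes listed as dauer input to daf-7 and genes of feeding and fat listed as downstream of the pathway were examined. They came from 5 lists, with mgl-1 in the downstream list, and 30 of 31 genes were matched by symbol (daf-21 was not). All 30 had a pooled region and 7 (23.3%) had one at a q-value below 0.05, against the 13.7% of nuclear protein-coding genes. The lists were chosen with earlier results of these data known, so their shares and ranks are a description only. Their windows were longer, with a median of 10.5 kb against 8.03 kb. The 7 were mgl-1 (rank 47, a metabotropic glutamate receptor, the only one with a thresholded peak), sma-9 (53, a Schnurri-type transcription factor), lon-2 (215, a glypican), daf-11 (677, a guanylyl cyclase of dauer signalling), sma-2 (951, a Smad), bra-1 (1337, a receptor-associated protein) and egl-4 (1565, a cGMP-dependent protein kinase). In the Sma/Mab pathway, the body size branch that shares DAF-4, 3 of 11 genes passed, and the median best rank was 3764. In the list named as upstream of daf-7, which includes scd-1, scd-2 and hen-1, it was 2 of 8, with a median of 2136.5. The place of these genes in the pathway was not examined. Smad- or receptor-associated genes had 1 of 3 and a median of 4201, and downstream genes 1 of 4 and a median of 7032.5. Other ligands and Smads had 0 of 4 and a median of 11933. A replicate 1 region overlapped by a replicate 2 region was present at 14 of the 30 (46.7%), against 36.7% of nuclear protein-coding genes.

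**Figure D4:**
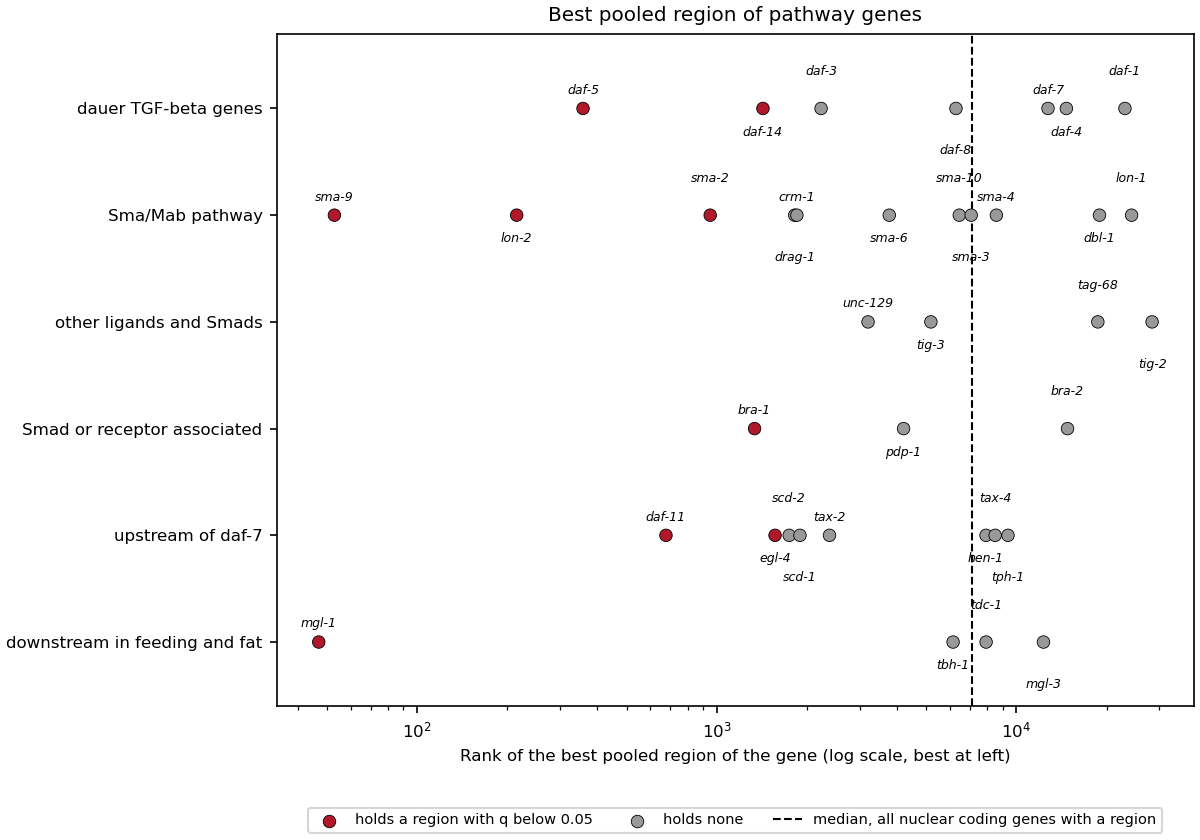
Best pooled rank of each gene on a log axis, best at the left, for the 7 dauer TGF-beta genes in the upper row and for 5 lists of related genes below. Red points hold a region with a q-value below 0.05, and the dashed line at 7115 is the median over nuclear protein-coding genes with a region. daf-5 at 358 stands left of the other 6 genes of its row, and sma-9 at 53 and mgl-1 at 47 stand left of daf-5.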

How the data were processed

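ChIP-seq regions for eGFP-DAF-12 in L4 larvae (antibody labelled daf-12) were deposited by the authors as narrowPeak lists on ce11 and ce10, per the labels' text lists of files. Only the ce11 lists were used. The deposited signal per region has no stated scale, and the deposited −log10 q-value is tied at its ceiling for 61 pooled regions. The lists were called per replicate and on both replicates together against a control. For the caller, its version and the reproducibility threshold nothing is given in the sources used here. Extraction and immunoprecipitation protocols are not given in the labels.

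From these lists, summits were placed on the Ensembl release 115 annotation of WBcel235, whose coordinates are those of ce11 (0 regions ran past a chromosome end). Distances are measured from summit to gene start, or to the start of the nearest transcript where so said, in 1-based coordinates. Regions overlapped when they shared at least 1 bp. Ranks follow the signal, and tied regions share the smallest rank number. Background values are over all nuclear protein-coding genes or all nuclear regions. With 1 group of 2 replicates no test was made. Counting, overlap and motif searches were checked on simulated regions. Members, lists and alternatives were chosen with earlier results of these data known. Named genes were the 7 members, the related genes with a pooled region at a q-value below 0.05, and the neighbours in best rank of the highest and lowest member. Alternatives changed the distance, the list, the q-value, the overlap and the motif window. Python 3.11.15, numpy 2.4.6, pandas 2.3.3, scipy 1.17.1 and matplotlib 3.10.9 were used.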

Additional observations from a re-analysis of the deposited data

How the results depend on the processing

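Of 56 combinations of result and alternative, 37 stayed within 1.5 times for a count, within the interval for a share, or within the spread between replicates for a rank, and 19 moved. For ranks this tally is partly set by the rule, since the replicate ranks that gave the spread were also among the alternatives. For daf-7 and daf-4, with a region in 1 replicate only, there was no such spread, and any changed rank was labelled as moved. The 33 pooled regions at the 7 genes became 2 at a q-value below 0.05 and 0 in the thresholded list, and the 7 genes with a region became 2 and 0 under the same settings. With distances of 1000, 2000 and 5000 bp the count of regions was 22, 28 and 45, and 5, 5 and 7 of the 7 genes had one, since the only pooled regions of daf-7 and daf-1 lay further out than 2000 bp. In place of the pooled list, the replicate 1 list held 32 regions and the replicate 2 list 24. Each had a region at 6 genes, without daf-7 in replicate 1 and without daf-4 in replicate 2. These were the deposited lists, and no list was called again with a replicate left out. Best ranks from them were among the alternatives, though ranks from lists of different lengths show no change between lists. The 6 overlaps between replicates became 3 when at least 50% of both regions had to overlap and 1 when summits had to lie within 100 bp. The half-site share was 3.03% within 50 bp and 18.2% within 200 bp, against 5.46% and 21.5% of nuclear pooled regions. In the replicate 1 list the half-site share at the 7 genes was 3.12%, and in the replicate 2 list it was 8.33%. Best ranks kept the same value for 3 genes within 1000 bp, 5 within 2000 bp and 4 within 5000 bp. Within 1000 bp daf-8 had a best rank of 23314 in place of 6283 and daf-3 9103 in place of 2229. Within 5000 bp daf-1 had 9925 in place of 23012, daf-7 7185 in place of 12743 and daf-8 4058 in place of 6283. Stricter lists hold fewer regions by construction; for the other changes the cause was not tested. No paired analysis was possible because all samples form 1 group. No read depth was given, which leaves its limits unstated.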

Other observations

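At the 7 genes the pooled list and the replicate lists did not always hold the same places. Of the 33 pooled regions, 9 overlapped no region of either replicate (27.3%), against 16.4% of nuclear pooled regions, and 4 of these 9 lay at daf-8. In the other direction, replicates overlapped each other without a pooled region at daf-1, where the pair ranked 13856 in replicate 1 and 14835 in replicate 2, and in a daf-5 intron, where the pair ranked 16153 and 15620. These values were noticed after the data were seen and are given as a description.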
